A study of Mus musculus with 6 samples.

Results

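The respiratory chain subunits encoded in the nuclear genome were followed in the aorta of aged mice with and without Sirt2, which encodes an NAD-dependent deacetylase. Genes were taken by name: Ndufa, Ndufb, Ndufc, Ndufs and Ndufv genes other than Ndufaf assembly factors, Sdha to Sdhd, Uqcr genes, Cyc1, Cycs, genes starting with Cox4, Cox5, Cox6, Cox7 or Cox8, and Atp5 genes. Cox7a1 and Cox8b were left out. This gave 82 genes of the 8690 names measured, with 38 in complex I, 4 in complex II, 9 in complex III, 14 in complex IV, 16 in complex V and the carrier gene Cycs. Of 85 protein-coding names in the GENCODE M21 annotation that match the rule, 81 were measured, and Atp5mpl, Atp5s, Cox7b2 and Cox8c were not analysed here.

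Total RNA was sequenced from aortas of aged C57BL/6 mice, 3 labelled Sirt2-KO (replicates 4, 7 and 8) and 3 labelled WT (replicates 2, 4 and 8). The labels give no age beyond "aged", and do not say how Sirt2 was deleted or in which cells. The comparison asks how these transcripts differ in the aged vessel when Sirt2 is missing. Values are FPKM, fragments per kilobase of transcript, scaled to the number of mapped fragments in the library. Differences are Sirt2-KO minus WT on the log2(FPKM + 1) scale from limma, with Benjamini-Hochberg adjustment over 8605 genes. Sirt2 itself was at 2.56, 3.32 and 2.23 FPKM in Sirt2-KO aortas, against 26.5, 34.1 and 49.2 FPKM in WT aortas (log2 difference -3.31, adjusted p = 0.00156). Each aorta is bulk tissue, in which fewer cells of a type and less RNA per cell cannot be told apart. Smooth muscle markers were abundant in all 6, with 12 of 12 measured and sums of 7931 to 14466 FPKM in Sirt2-KO and 9552 to 17806 FPKM in WT.

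The respiratory chain passes electrons from NADH through complex I, and from succinate through complex II, to ubiquinone, then through complex III and cytochrome c to complex IV, where oxygen is reduced. Complexes I, III and IV pump protons across the inner mitochondrial membrane, and complex V, the ATP synthase, uses the returning protons to make ATP. Most subunits are encoded in the nucleus, the others in mitochondrial DNA, and the factors NRF-1, GABP, YY1 and the ERR receptors are known to bind promoters of nuclear subunit genes. Contractile smooth muscle cells rely on glycolysis as well as on respiration, whereas brown adipocytes and heart muscle are dense in mitochondria.

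A letter pattern of NRF-1 type, GCGCANGCG on either strand, stood in the promoter windows of many of these genes. RefSeq windows of 300 bases (GRCm38.p6, 250 before to 50 after the start) matched 65 of the 82 by symbol. The pattern was in 21 of 65 (32.3%), in 15.4% of the 6312 tested genes with a window and in 7.03% of all 27025 genes in the table. Its holders came from all 5 complexes, among them Sdha, Sdhd, Uqcrc1, Cox6a1, Ndufs6, Atp5c1 and Atp5o. The 250 bases before the start are shown for Sdha, which held 3 copies, starting 98, 55 and 10 bases before the transcript start (at -98, -55 and -10), for Cox6a1, which held 2 (at -162 and -117), and for Ndufs7, which held none. Each is the gene with the smallest unadjusted p among those of its complex with a single window. They read 5′ to 3′ on the gene's strand, with the pattern in capitals, and matches that overlap on opposite strands count as 1 copy. Sdha lies on the minus strand (chr13:74350241-74350490), Cox6a1 on the minus strand (chr5:115348959-115349208) and Ndufs7 on the plus strand (chr10:80249199-80249448).
Sdha: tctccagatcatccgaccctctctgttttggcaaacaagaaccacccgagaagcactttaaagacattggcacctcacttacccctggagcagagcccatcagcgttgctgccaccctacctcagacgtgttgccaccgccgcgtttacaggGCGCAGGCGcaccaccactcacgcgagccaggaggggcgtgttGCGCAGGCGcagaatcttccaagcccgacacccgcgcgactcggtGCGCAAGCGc
Cox6a1: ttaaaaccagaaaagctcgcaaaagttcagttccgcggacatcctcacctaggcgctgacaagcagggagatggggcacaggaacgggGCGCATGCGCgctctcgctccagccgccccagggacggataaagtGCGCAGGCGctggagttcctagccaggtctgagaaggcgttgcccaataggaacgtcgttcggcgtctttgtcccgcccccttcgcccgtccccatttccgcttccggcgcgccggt
Ndufs7: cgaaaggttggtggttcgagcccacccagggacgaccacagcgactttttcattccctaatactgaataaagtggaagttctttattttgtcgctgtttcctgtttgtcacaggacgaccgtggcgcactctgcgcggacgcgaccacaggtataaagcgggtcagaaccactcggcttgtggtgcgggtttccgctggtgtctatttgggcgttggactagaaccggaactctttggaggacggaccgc
A YY1-type pattern, AAGATGGC, was in 9 of 65 (13.8%, against 5.15% of tested and 3.19% of all genes), one of them Ndufs7, where it starts at base 25 after the start. An ETS-type pattern, CCGGAAG, as GABP recognizes, was in 16 (24.6%, against 18.8% and 9.93%), and an ERR-type pattern, AAGGTCA, in 8 (12.3%, against 3.90% and 5.38%), all counted on both strands. These patterns do not overlap the NRF-1 type in the 3 sequences shown. A match describes the letters in the window only. The 21 genes with the NRF-1 type had a median log2 difference of 0.07 and the 44 without it 0.09.

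No respiratory chain subunit gene passed the test. Of the 82, 0 were called higher and 0 lower at an adjusted p of 0.05, while limma called 2.91% of all tested genes (2.29% higher and 0.616% lower). All 82 had passed the filter of a mean of 1 FPKM, and their means ran from 3.34 FPKM for Cox6b2 to 705 FPKM for Cox6a1. Only Ndufa4l2 had an unadjusted p under 0.05, as 24.8% of all tested genes did. The log2 difference was positive for 53 genes and negative for 29, a share of 64.6% positive against 42.1% of all tested genes, but quantile normalization gave 41 and 41 and median-of-ratios scaling 65 and 17. The median difference was 0.11, against -0.08 over all tested genes. Sirt2-KO values lay entirely above WT values for 2 genes, Ndufa4l2 and Ndufv3, and entirely below for 0, while 16.0% of all tested genes lay apart upward and 17.3% downward.

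**Figure D1:**
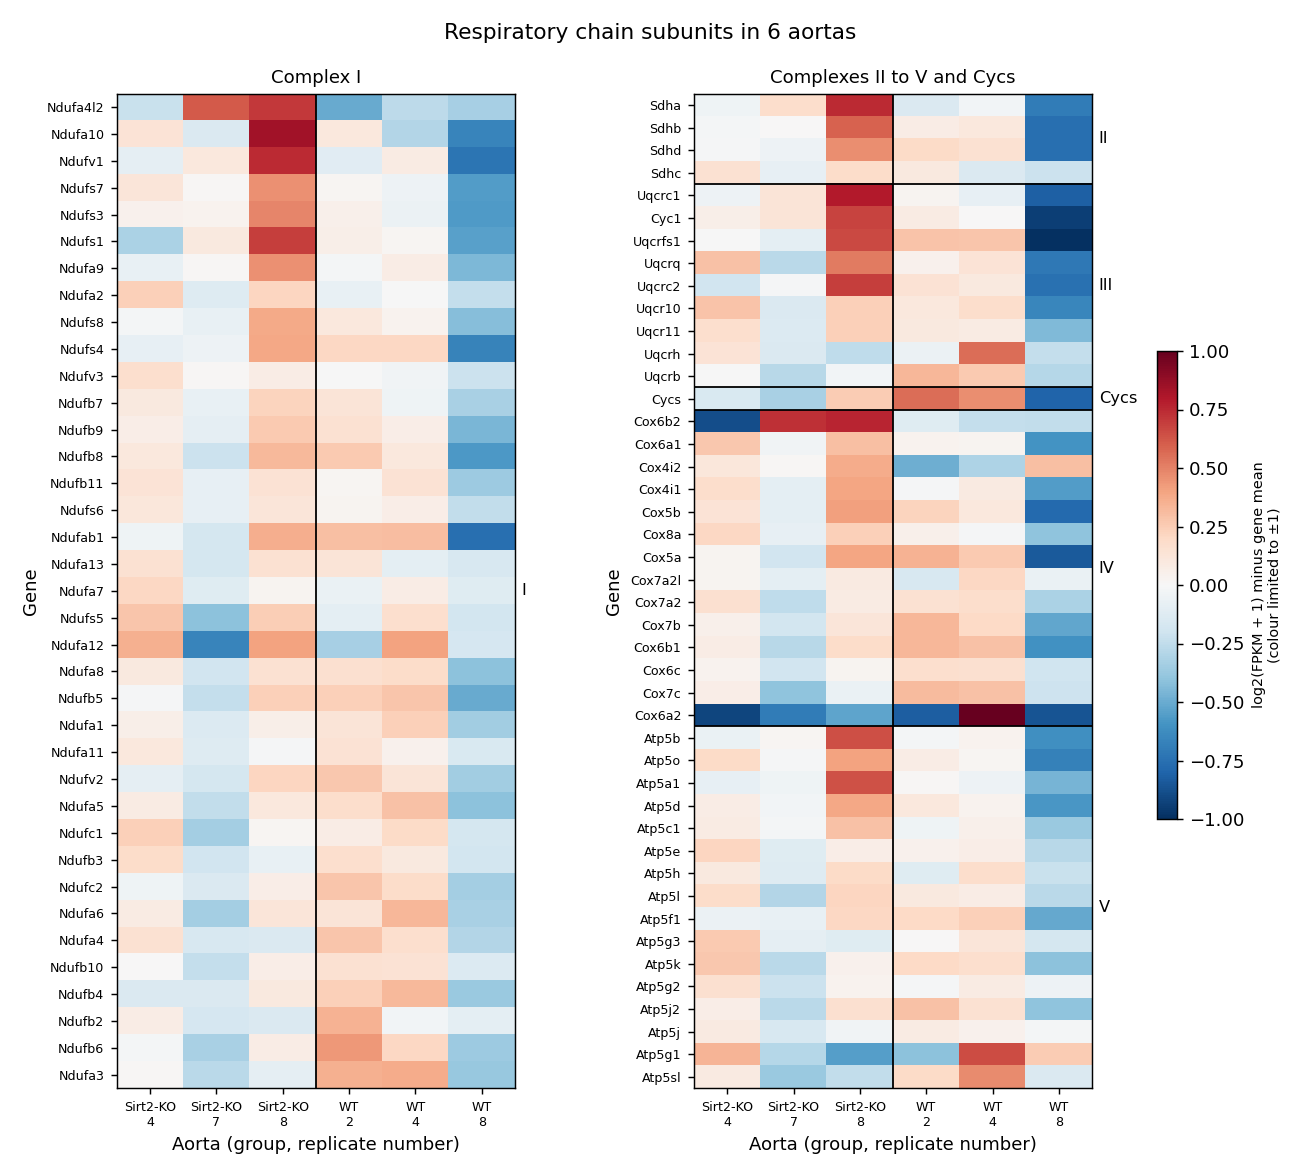
Level of 81 of the 82 subunit genes (rows, by complex) in the 6 aortas (columns, Sirt2-KO left of WT), as log2(FPKM + 1) minus the gene's mean over the 6. Over all 82, WT replicate 8 was the lowest aorta for 61 genes and Sirt2-KO replicate 8 the highest for 41.

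The subunit genes varied together between single aortas, and the genotypes overlapped. Centred on each gene's own mean, the median over all 82 was 0.08, -0.13 and 0.22 on the log2 scale in Sirt2-KO replicates 4, 7 and 8, against 0.10, 0.12 and -0.39 in WT replicates 2, 4 and 8. WT replicate 8 stood lowest and Sirt2-KO replicate 8 highest, with the other 4 aortas between them. The same median over all tested genes stayed between -0.10 in Sirt2-KO replicate 8 and 0.09 in WT replicate 4. WT replicate 8 was the lowest of the 6 for 61 of 82 genes (74.4%, against 19.4% of all tested genes) and the highest for 0. Sirt2-KO replicate 8 was the highest for 41 (50.0%, against 14.6%). Without WT replicate 8, 37 genes had a positive difference and 45 a negative one, with a median of -0.02, and without Sirt2-KO replicate 8 the counts were 45 and 37 with a median of 0.03.

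Summed over the 82 genes, FPKM came to 12327, 10562 and 13922 in Sirt2-KO aortas, against 12181, 12404 and 8469 in WT aortas. The means were 12270 ± 1681 FPKM in Sirt2-KO and 11018 ± 2211 FPKM in WT (SD, n = 3 each), and the groups overlapped. Fat markers differed between the same aortas. Brown adipocyte markers (14 of 17 tested) summed to 557, 599 and 1189 FPKM in Sirt2-KO, against 1404, 1426 and 173 FPKM in WT, and Ucp1, the uncoupling protein that defines brown fat, was at 107, 101 and 245 FPKM in Sirt2-KO, against 475, 419 and 35.1 FPKM in WT (log2 difference -0.47, adjusted p = 0.770). Ucp1 was the highest gene of this list in each WT aorta, but in no Sirt2-KO aorta. The list went both ways, with 8 of 14 positive, 0 called (4 at an unadjusted p under 0.05) and a median of 0.36. This median was -0.17 when Sirt2-KO replicate 8 was left out and -0.50 when WT replicate 8 was left out. In the fit without WT replicate 8, 2 of 14 were positive and 2 were called lower, while 148 of all 8605 tested genes were called. Dio2, the deiodinase that activates thyroid hormone, was at 10.3, 20.2 and 30.5 FPKM in Sirt2-KO, against 7.86, 8.92 and 4.34 FPKM in WT (log2 difference 1.34, adjusted p = 0.114), and its groups lay apart, as did those of Ebf2, a brown fat transcription factor (log2 difference 1.01, adjusted p = 0.121). The groups of Prdm16 and Gk, of the same list, lay apart the other way (log2 differences -0.92 and -1.10, adjusted p = 0.116 and 0.123). Thus 2 of 14 lay apart upward and 2 downward, against 16.0% and 17.3% of all tested genes. White adipocyte markers (14 of 15 tested) summed to 6693, 5300 and 7968 FPKM in Sirt2-KO, against 2864, 2914 and 779 FPKM in WT. Their median difference was 2.13, with 13 positive and 10 at an unadjusted p under 0.05, and was 1.29 without WT replicate 8. Of the 14, 3 were called higher (2.29% of all tested genes were), among them Cfd, the secreted protease adipsin (log2 difference 3.74, adjusted p = 0.0158). The count was 0 without Sirt2-KO replicate 7, without Sirt2-KO replicate 8 and under the replicate block, 1 without Sirt2-KO replicate 4 or WT replicate 2, and 6 without WT replicate 8. Fabp4, the adipocyte fatty acid binding protein, had a log2 difference of 0.60 (adjusted p = 0.461). Within each genotype replicate 8 was at the same end for the subunits and for both fat lists, lowest among WT and highest among Sirt2-KO, and no marker of either list was at 0 in any aorta. Their part in the result was not tested.

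**Figure D2:**
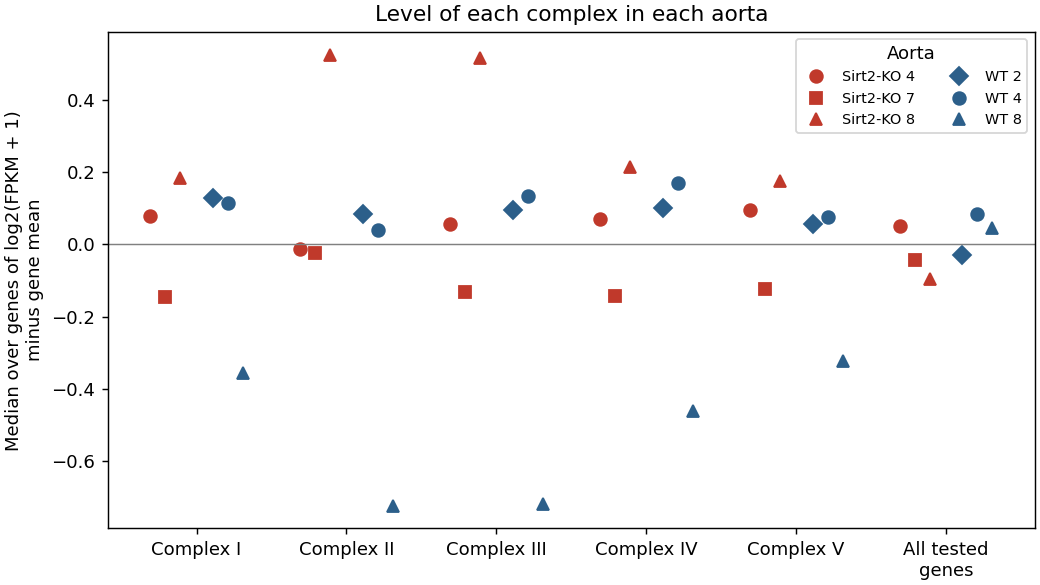
Median level of the tested genes of each complex in each aorta, as log2(FPKM + 1) minus each gene's mean over the 6, with Sirt2-KO left of WT. In every complex WT replicate 8 is lowest and Sirt2-KO replicate 8 highest, and the groups overlap.

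Complexes II and III had the largest median differences. The median log2 difference was 0.33 in complex II (4 of 4 genes positive) and 0.33 in complex III (7 of 9), against 0.08 in complex I (23 of 38), 0.08 in complex IV (8 of 14) and 0.06 in complex V (11 of 16). Under quantile normalization complexes I, IV and V had medians of -0.02, -0.03 and -0.05, while complexes II and III stayed positive at 0.23 and 0.22. Without WT replicate 8 the medians were 0.10 in complex II and 0.00 in complex III, and -0.07, -0.10 and -0.04 in complexes I, IV and V. The centred medians of complex II were -0.01, -0.02 and 0.53 in Sirt2-KO aortas, against 0.09, 0.04 and -0.72 in WT aortas, so that the 2 replicates numbered 8 set the ends of the range.

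Complex I, the NADH dehydrogenase, has 7 conserved core subunits of nuclear origin, which carry the flavin and the iron-sulfur clusters, and many accessory subunits around them. The core genes had a median log2 difference of 0.38, with 6 of 7 positive, and the 29 accessory genes one of 0.07, with 16 positive. Ndufs7, which carries the cluster that hands electrons to ubiquinone, was at 178, 165 and 225 FPKM in Sirt2-KO aortas, against 165, 158 and 110.3 FPKM in WT aortas. The Sirt2-KO values reached higher, while replicate 7 lay level with WT replicate 2. The means were 189 ± 31.5 FPKM in Sirt2-KO and 145 ± 29.9 FPKM in WT (SD, n = 3 each), with a log2 difference of 0.39 (adjusted p = 0.261). Ndufv1, which binds NADH and the flavin, was at 91.6, 105 and 164 FPKM in Sirt2-KO, against 90.0, 103 and 58.6 FPKM in WT (log2 difference 0.51, adjusted p = 0.291). Only the 2 replicates numbered 8 left the range that the other 4 aortas shared. Ndufs1, the largest core subunit, was at 26.8, 35.9 and 54.9 FPKM in Sirt2-KO, against 34.9, 34.0 and 22.7 FPKM in WT. Ndufv2, another iron-sulfur subunit of the NADH-binding end, was the core gene with a negative difference (-0.03, adjusted p = 0.926).

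Among the accessory genes the log2 difference ran from -0.23 for Ndufa3 to 0.56 for Ndufa10. Ndufa10 was at 44.9, 36.8 and 73.8 FPKM in Sirt2-KO aortas, against 44.0, 33.0 and 25.4 FPKM in WT aortas (adjusted p = 0.269), and the groups overlapped. Ndufb9, with the second highest mean of the complex, was at 184, 165 and 211 FPKM in Sirt2-KO, against 195, 184 and 128 FPKM in WT (log2 difference 0.16, adjusted p = 0.605). Its groups overlapped as well, with only WT replicate 8 outside the range of the Sirt2-KO values. Ndufv3, a small subunit of the NADH-binding end, was at 153, 138 and 144 FPKM in Sirt2-KO, against 136, 133 and 118 FPKM in WT (log2 difference 0.17, adjusted p = 0.389). Its groups did not overlap, though the lowest Sirt2-KO and highest WT values lay close together.

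Ndufa4 and Ndufa4l2 encode a pair of related proteins. Both are counted here with complex I by name, although the Ndufa4 protein is now placed in complex IV, and Ndufa4l2 is known as a hypoxia-inducible relative found in perivascular mural cells. Ndufa4l2 was at 16.1, 29.7 and 31.6 FPKM in Sirt2-KO aortas, against 13.1, 15.7 and 14.9 FPKM in WT aortas. Replicates 7 and 8 stood well above all WT values and replicate 4 just above the highest of them. The means were 25.8 ± 8.45 FPKM in Sirt2-KO and 14.6 ± 1.35 FPKM in WT (SD, n = 3 each, 1.77-fold), with a log2 difference of 0.73 (SE 0.251, adjusted p = 0.144, exact two-sided permutation p = 0.1, the smallest that 3 against 3 allows). Without Sirt2-KO replicate 4 the gene was called higher (log2 difference 1.02, adjusted p = 0.0221). Ndufa4 was far more abundant, at 207, 167 and 169 FPKM in Sirt2-KO, against 226, 209 and 152 FPKM in WT (log2 difference -0.10, adjusted p = 0.741).

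Complex II, succinate dehydrogenase, belongs both to the chain and to the citric acid cycle and has no subunit of mitochondrial origin. Sdha, the flavoprotein that oxidizes succinate, was at 123, 144 and 213 FPKM in Sirt2-KO aortas, against 115, 124 and 78.0 FPKM in WT aortas. Replicate 4 of Sirt2-KO fell within the WT range and the other Sirt2-KO aortas above it. The means were 160 ± 47.3 FPKM in Sirt2-KO and 106 ± 24.5 FPKM in WT (SD, n = 3 each, 1.51-fold), with a log2 difference of 0.58 (SE 0.256, adjusted p = 0.215). Sdhb, the iron-sulfur subunit, was at 114, 115 and 173 FPKM in Sirt2-KO, against 121, 124 and 67.9 FPKM in WT (log2 difference 0.38, adjusted p = 0.409). Here 2 of the 3 WT values exceeded 2 of the 3 Sirt2-KO values. The membrane anchors Sdhc and Sdhd had log2 differences of 0.17 and 0.27 (adjusted p = 0.441 and 0.550), and that of Sdhd was -0.037 without WT replicate 8.

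Complex III, the cytochrome bc1 complex, passes electrons from ubiquinol to cytochrome c. Its large subunit genes, Uqcrc1, Uqcrc2, Uqcrfs1 (the Rieske iron-sulfur protein) and Cyc1 (cytochrome c1), had log2 differences between 0.33 and 0.58. Uqcrc1, a core protein of the matrix side, was at 134, 153 and 243 FPKM in Sirt2-KO aortas, against 142, 132 and 78.7 FPKM in WT aortas. Its highest and lowest values were those of the 2 replicates numbered 8, and the other 4 overlapped. The means were 177 ± 57.9 FPKM in Sirt2-KO and 117 ± 34.0 FPKM in WT (SD, n = 3 each), with a log2 difference of 0.58 (SE 0.297, adjusted p = 0.262). Cyc1 had the same order at its ends, with 159, 168 and 246 FPKM in Sirt2-KO, against 162, 153 and 79.1 FPKM in WT (log2 difference 0.57, adjusted p = 0.276). The 5 small subunit genes had a median difference of 0.18, from 0.36 for Uqcrq (adjusted p = 0.443) to -0.21 for Uqcrb (adjusted p = 0.507). Uqcr11 and Uqcr10, the 2 most abundant of the complex, had differences of 0.18 and 0.25 (adjusted p = 0.563 and 0.536), the second of which was -0.015 without WT replicate 8.

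Cycs, the cytochrome c that carries electrons from complex III to complex IV, did not have the pattern of Cyc1. It was at 28.1, 24.8 and 37.6 FPKM in Sirt2-KO aortas, against 46.6, 43.6 and 17.6 FPKM in WT aortas. WT replicates 2 and 4 were above every Sirt2-KO aorta and WT replicate 8 below all of them. The means were 30.2 ± 6.63 FPKM in Sirt2-KO and 35.9 ± 16.0 FPKM in WT (SD, n = 3 each), with a log2 difference of -0.15 (adjusted p = 0.809), which was -0.59 without WT replicate 8 and 0.22 under the replicate block. The rule's exclusions Cox7a1 and Cox8b, the isoforms of complex IV that striated muscle and brown fat use, spread more widely. Cox7a1 was at 52.1, 56.4 and 113 FPKM in Sirt2-KO, against 169, 200.1 and 23.0 FPKM in WT, and Cox8b at 164, 150.2 and 235 FPKM in Sirt2-KO, against 168, 209.6 and 30.9 FPKM in WT. Both genes belong to the brown adipocyte list above, so their values are part of its sums. In both the 2 replicates numbered 8 lay apart from the others of their genotype, as Ucp1 did.

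Complex IV, cytochrome c oxidase, holds nuclear subunits around its mitochondrial core, some with tissue-specific isoforms. The 10 ubiquitous genes had a median log2 difference of 0.07, with 5 positive, from -0.27 for Cox7c to 0.36 for Cox6a1. Cox4i1, which joins early in assembly, was at 719, 594 and 837 FPKM in Sirt2-KO aortas, against 632, 679 and 431 FPKM in WT aortas (717 ± 122 FPKM in Sirt2-KO and 581 ± 132 FPKM in WT, SD, n = 3 each). Its log2 difference was 0.32 (adjusted p = 0.402). Cox6a1 was the most abundant of all 82 genes, at 834, 677 and 852 FPKM in Sirt2-KO, against 709, 704 and 457 FPKM in WT (log2 difference 0.36, adjusted p = 0.331). In both genes Sirt2-KO replicate 7 lay inside the WT range. Cox8a was at 494, 405 and 505 FPKM in Sirt2-KO, against 442, 423 and 322 FPKM in WT (log2 difference 0.25, adjusted p = 0.403).

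The isoform genes of complex IV were low. Cox4i2, the lung and hypoxia isoform of subunit 4, was at 6.86, 6.36 and 8.43 FPKM in Sirt2-KO aortas, against 4.19, 4.87 and 7.96 FPKM in WT aortas (log2 difference 0.33, adjusted p = 0.404). It was the reverse of Cox4i1 in WT replicate 8, which was the lowest aorta for Cox4i1 and the highest WT aorta for Cox4i2. Cox6b2, known as the testis isoform, was at 1.16, 5.64 and 5.79 FPKM in Sirt2-KO, against 2.68, 2.39 and 2.37 FPKM in WT (log2 difference 0.40, adjusted p = 0.589), with 1 Sirt2-KO aorta below and 2 above all WT values. Cox6b1, its ubiquitous counterpart, differed by -0.01 (adjusted p = 0.980), Cox7a2 by -0.01 (adjusted p = 0.975), and Cox7a2l, a supercomplex factor related to Cox7a2, by 0.01 (adjusted p = 0.963). Cox6a2, the heart and skeletal muscle isoform of subunit 6a, was at 0.151, 0.340 and 0.506 FPKM in Sirt2-KO, against 0.227, 29.9 and 0.192 FPKM in WT. A single aorta, WT replicate 4, made its log2 difference of -1.43 (SE 1.24, adjusted p = 0.480), which was 0.13 without that aorta.

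Striated muscle markers were high in the same aorta. The 10 heart muscle markers tested of 16 summed to 76.5, 70.6 and 85.6 FPKM in Sirt2-KO aortas, against 73.9, 631 and 69.9 FPKM in WT aortas, and Myh6, the cardiac myosin heavy chain, was at 0.271, 0.111 and 5.62 FPKM in Sirt2-KO, against 1.80, 84.7 and 0.0941 FPKM in WT. WT replicate 4 stood far above the other 5 aortas for the sum and for Myh6, and Nppa and Myl7 were listed at 0 in at least 1 aorta. Nppa was at 31.5 FPKM in WT replicate 4 and at 0.194 FPKM or less elsewhere, and Cox6a2 at 0.506 FPKM or less elsewhere. Both passed the filter of a mean of 1 FPKM only through that aorta, as did some others of the list. That such genes were highest there was thus fixed by the filter. Of the 10, Ryr2, the calcium release channel, was called lower (log2 difference -1.43, adjusted p = 0.0370), as 0.616% of all tested genes were, but not in 5 of the 6 fits without 1 mouse. Ryr2 was at 2.18, 1.58 and 1.23 FPKM in Sirt2-KO, against 4.96, 7.36 and 6.15 FPKM in WT, with every WT aorta above every Sirt2-KO aorta. Tnnt2, cardiac troponin T, differed by -0.40 (adjusted p = 0.623). Without WT replicate 4 the median of the 10 was 0.22, against -1.34 with it. The 4 skeletal muscle markers tested of 14 summed to at most 12.5 FPKM in Sirt2-KO and to 23.2, 123 and 10.3 FPKM in WT, and Acta1 and Mb, skeletal actin and myoglobin, differed by -1.16 and -2.45 (adjusted p = 0.0808 and 0.270). Acta1 was at 1.14, 1.38 and 1.68 FPKM in Sirt2-KO, against 5.24, 5.01 and 3.04 FPKM in WT, and was thus highest in WT replicate 2. The part of these markers in the Cox6a2 values was not tested.

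**Figure D3:**
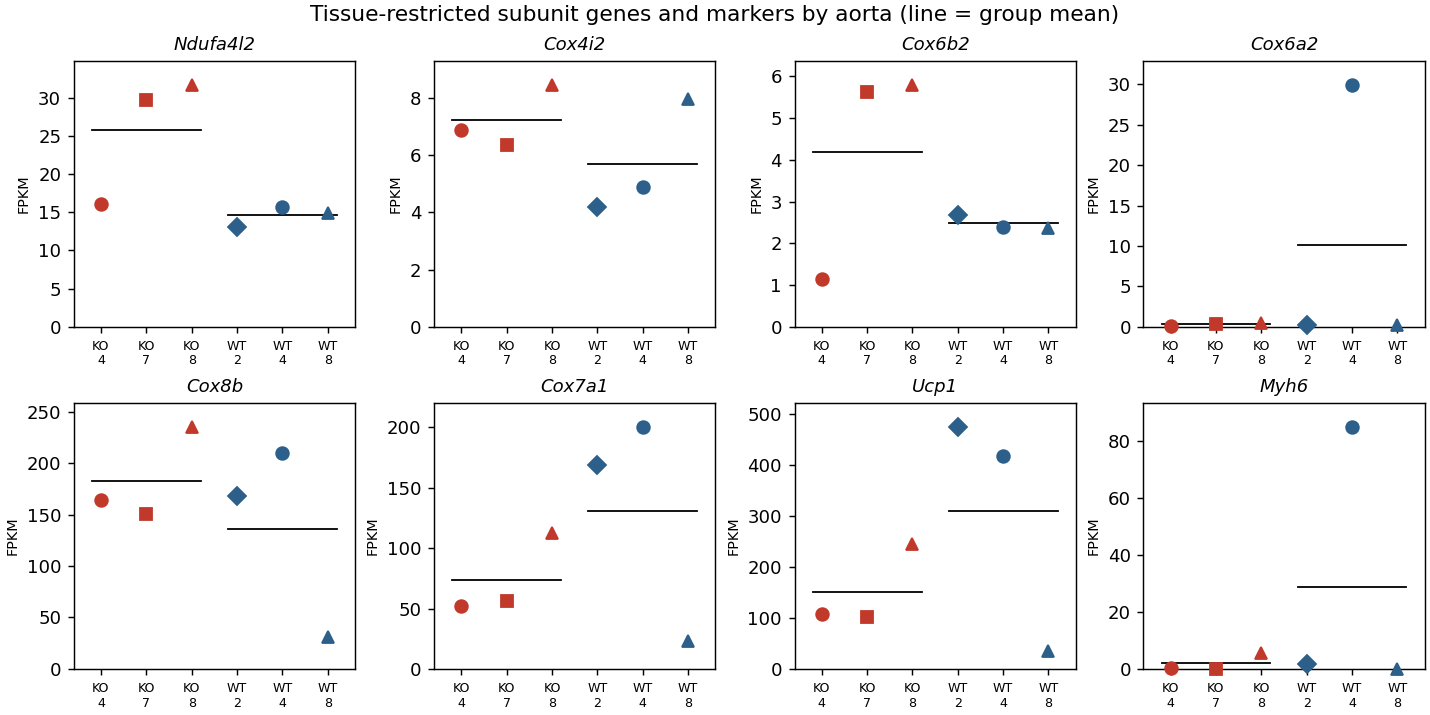
Isoform genes and cell type markers in the 6 aortas in FPKM, with Sirt2-KO left of WT, 1 point for each aorta and a line at each group's mean. Cox6a2 and Myh6 are highest in WT replicate 4, at 29.9 and 84.7 FPKM, and Ucp1, Cox7a1 and Cox8b are lowest in WT replicate 8.

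Complex V, the ATP synthase, joins a catalytic F1 head to a membrane part with a ring of c subunits by a rotating and a fixed stalk. The 5 genes of F1 had a median log2 difference of 0.29, with 5 positive. Atp5b, the catalytic beta subunit, was at 513, 545 and 840.5 FPKM in Sirt2-KO aortas, against 531, 549 and 351 FPKM in WT aortas. Apart from the 2 replicates numbered 8 the values of both groups lay within a narrow range. The means were 633 ± 181 FPKM in Sirt2-KO and 477 ± 109.7 FPKM in WT (SD, n = 3 each), with a log2 difference of 0.40 (adjusted p = 0.363). Atp5a1, the alpha subunit, was at 279, 287 and 461 FPKM in Sirt2-KO, against 298, 286 and 214 FPKM in WT (log2 difference 0.34, adjusted p = 0.394), with the same aortas at its ends. Atp5o, the stalk subunit that confers oligomycin sensitivity, was at 190.1, 165 and 219 FPKM in Sirt2-KO, against 174, 169 and 103 FPKM in WT (log2 difference 0.39, adjusted p = 0.312). Atp5c1, the central stalk gamma subunit, differed by 0.24 (adjusted p = 0.366), and Atp5e, the small epsilon subunit of F1, by 0.11 (adjusted p = 0.661). The 4 genes of the fixed stalk had a median of 0.08, with 3 positive, and the 3 small membrane subunits one of 0.03, with 2 positive.

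The c ring is made from 3 genes that encode the same mature protein with different targeting sequences. Atp5g1 was at 57.6, 36.8 and 30.5 FPKM in Sirt2-KO aortas, against 33.7, 71.6 and 53.9 FPKM in WT aortas (log2 difference -0.33, adjusted p = 0.531). Sirt2-KO replicate 8, the highest aorta for most F1 genes, was the lowest of all 6 here. Atp5g2 differed by -0.01 (adjusted p = 0.955) and Atp5g3 by 0.04 (adjusted p = 0.899). Atp5sl was counted with complex V by its name only and was given no role in the complex here. It was among the 3 Atp5 genes with the smallest unadjusted p, with 9.42, 6.57 and 7.23 FPKM in Sirt2-KO, against 10.1, 12.6 and 7.85 FPKM in WT (log2 difference -0.35, adjusted p = 0.317), and its groups overlapped.

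**Figure D4:**
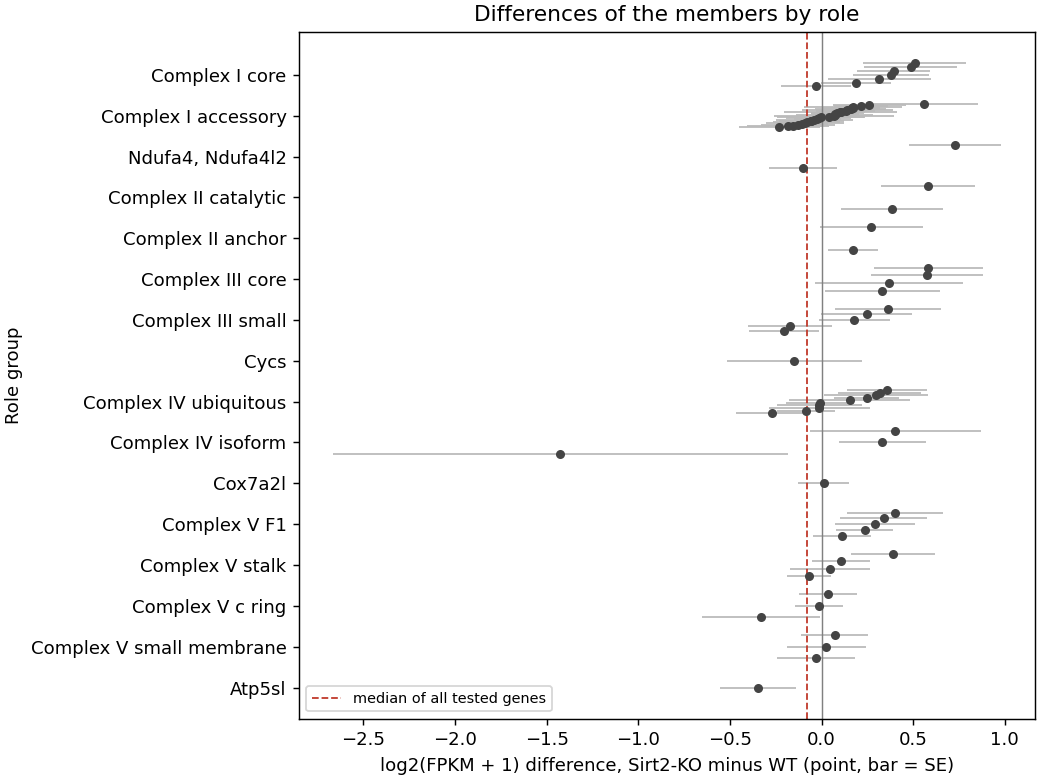
Log2 difference of each gene, Sirt2-KO minus WT, by the role of its protein, as points with bars of 1 SE, and the median of all tested genes as a dashed line. The core and catalytic roles of complexes I, II and III and F1 have medians of 0.29 to 0.48, and accessory and small subunits of complexes I and III lie at 0.07 and 0.18. The other roles run from -0.35 for Atp5sl to 0.33 for complex IV isoforms, with the Ndufa4 pair at 0.32 and the complex II anchors at 0.22.

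Sorted by role, the catalytic and core genes had a higher median difference than the smaller subunits, in a grouping made after the values were seen and therefore not tested. Their range, from -0.03 to 0.58, lay inside that of the other genes, from -1.43 to 0.73. For 16 genes (the core of complexes I and III, Sdha, Sdhb, Atp5a1, Atp5b and Atp5c1) the median log2 difference was 0.38, with 15 positive, and for the other 66 it was 0.06, with 38 positive. Under quantile normalization these medians were 0.28 and -0.05. In the 16, WT replicate 8 was the lowest aorta for 16 and Sirt2-KO replicate 8 the highest for 15. Their summed FPKM was 2263, 2351 and 3534 in Sirt2-KO aortas, against 2338, 2354 and 1478 in WT aortas, so that replicates 4 and 7 of Sirt2-KO and 2 and 4 of WT had nearly the same sum. Without WT replicate 8 the medians were 0.19 for the 16, with 14 positive, and -0.10 for the others, and without Sirt2-KO replicate 8 they were 0.18 and -0.02.

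The 16 genes also have longer annotated transcripts, with a median of 1088 bases against 625 bases for 65 of the others (GENCODE M21, median over protein-coding transcripts of a gene). This length can differ from that of the transcript in use. It was 651 bases for Ndufs1, the largest core subunit of complex I, and 2675.5 bases for Atp5g1 of the c ring. Across 81 subunit genes the log2 difference had a Spearman correlation of 0.28 with transcript length, while across 7913 of the 8605 tested genes it was -0.18. These genes share the same 6 libraries and are not independent. Within single aortas the centred level of the subunit genes correlated with length at -0.36, 0.33 and 0.36 in Sirt2-KO replicates 4, 7 and 8, against -0.14, -0.15 and -0.21 in WT replicates 2, 4 and 8. Sirt2-KO replicate 4 thus went with the WT aortas in sign. The part of transcript length in the difference between roles was not tested.

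The citric acid cycle and pyruvate dehydrogenase genes, which feed the chain with NADH and succinate, had their ends in the same aortas as the core subunits. All 18 listed were tested and had a positive difference, with a median of 0.42 and 0 called. Of the 18, 2 had an unadjusted p under 0.05, against 24.8% of all tested genes. Their summed FPKM was 1428, 1688 and 2665 in Sirt2-KO aortas, against 1543, 1545 and 869 in WT aortas. WT replicate 8 was the lowest aorta for 16 of the 18 and Sirt2-KO replicate 8 the highest for 18, and without WT replicate 8 the count was 14 positive with a median of 0.17. Pdha1, the pyruvate dehydrogenase E1 alpha subunit, was at 117, 141 and 201 FPKM in Sirt2-KO, against 80.8, 87.2 and 55.9 FPKM in WT (log2 difference 1.01, adjusted p = 0.0780). Its groups did not overlap, and neither did those of Pdhb, its E1 beta partner, which was chosen after its values were seen (107, 123 and 194 FPKM in Sirt2-KO, against 80.2, 80.2 and 37.7 FPKM in WT). They were the only 2 of the 18 genes to lie apart upward, as 16.0% of all tested genes did.

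Assembly factors help to build the complexes and are not part of them. Of 47 listed, 29 were tested, 10 had a positive and 19 a negative difference, and the median was -0.06. Of the 29, 0 were called and 3 had an unadjusted p under 0.05, against 24.8% of all tested genes. The positive count was 14 under median-of-ratios scaling, 15 without WT replicate 2 or Sirt2-KO replicate 7 (medians of 0.00 and 0.01) and 17 under the replicate block (median 0.05). Their summed FPKM was 652, 540 and 581 in Sirt2-KO aortas, against 654, 679 and 540 in WT aortas, with WT replicate 8 the lowest aorta for 12 (41.4%, against 19.4% of all tested genes). Coa5, needed to build complex IV, was at 22.4, 22.1 and 25.4 FPKM in Sirt2-KO, against 20.1, 16.9 and 15.1 FPKM in WT (log2 difference 0.41, adjusted p = 0.141), and its groups did not overlap. Cox17, the copper chaperone of complex IV, was at 95.3, 70.3 and 78.8 FPKM in Sirt2-KO, against 133, 135 and 84.4 FPKM in WT (log2 difference -0.50, adjusted p = 0.207).

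Regulators of mitochondrial biogenesis were measured in part, 8 of 27, with 4 positive, 4 negative and 0 called. Of the 8, 1 had an unadjusted p under 0.05, against 24.8% of all tested genes. Esrra, which encodes the receptor ERR alpha, was at 28.1, 25.2 and 32.9 FPKM in Sirt2-KO aortas, against 31.7, 32.2 and 19.9 FPKM in WT aortas (log2 difference 0.06, adjusted p = 0.862), with its lowest and highest values in WT replicate 8 and Sirt2-KO replicate 8. Ppard, a lipid-sensing nuclear receptor, was at 13.6, 11.6 and 9.15 FPKM in Sirt2-KO, against 15.5, 16.4 and 14.2 FPKM in WT (log2 difference -0.41, adjusted p = 0.183), and its groups lay apart. Ppargc1a, Nrf1 and Tfam were not analysed here. Of the 13 listed genes of mitochondrial DNA 2 were tested. The complex I subunit mt-Nd5 was at 2589, 3641 and 4449.6 FPKM in Sirt2-KO, against 4858, 4485 and 3113 FPKM in WT (log2 difference -0.23, adjusted p = 0.626). Another complex I subunit, mt-Nd6, was at 271, 1.05 and 446 FPKM in Sirt2-KO, against 663, 644 and 434 FPKM in WT, and 1 aorta, Sirt2-KO replicate 7, set its log2 difference of -3.18 (adjusted p = 0.315).

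Another gene of the inner membrane did fall. Nnt, the proton-driven transhydrogenase that makes NADPH in the matrix, was at 6.30, 6.41 and 4.70 FPKM in Sirt2-KO aortas, against 21.3, 18.0 and 27.8 FPKM in WT aortas (log2 difference -1.77, adjusted p = 0.0100). It is no subunit of the chain, and its WT replicate 8 was the highest aorta, the opposite of the subunits. The labels name no substrain of C57BL/6, among which a deletion in Nnt is known, and its part in these values was not tested.

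Markers of other cell types in the vessel wall had differences of mostly 1 sign. All 12 macrophage markers had a positive difference, with sums of 482, 792 and 783 FPKM in Sirt2-KO, against 218, 433 and 163 FPKM in WT. Of these 1 was called higher (2.29% of all tested genes were), Folr2, a folate receptor of resident macrophages (log2 difference 1.77, adjusted p = 0.0260), while the abundant lysozyme gene Lyz2 differed by 1.08 (adjusted p = 0.165). The count was 0 in 4 of the 6 fits without 1 mouse and under the replicate block, 7 without Sirt2-KO replicate 4 and 8 without WT replicate 4. All 10 adventitial fibroblast markers had a positive difference, with a median of 1.45 and 9 at an unadjusted p under 0.05. The 10 summed to 1268, 2470 and 2116 FPKM in Sirt2-KO, against 543, 867 and 699 FPKM in WT. Of these 3 were called higher, against 2.29% of all tested genes, among them Pi16, a marker of adventitial fibroblasts (log2 difference 2.37, adjusted p = 0.00509), while decorin, Dcn, differed by 1.23 (adjusted p = 0.0960). The count was 9 without Sirt2-KO replicate 4, 2 without WT replicate 2, 1 when either other Sirt2-KO aorta was left out and 0 under the replicate block.

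All 12 smooth muscle markers had a negative difference, with 0 called and a median of -0.48. Of the 12, 4 had an unadjusted p under 0.05, against 24.8% of all tested genes. Mylk, the myosin light chain kinase, differed by -0.94 (adjusted p = 0.0523) and Acta2, smooth muscle actin, by -0.39 (adjusted p = 0.553). Of 12 endothelial markers 10 had a negative difference, with 0 called and a median of -0.35. Of the 12, 3 had an unadjusted p under 0.05, against 24.8% of all tested genes. WT replicate 4 was the highest aorta for 10 of the 12. The median was -0.11 without that aorta and -0.33 to -0.49 in the other fits without 1 mouse. Egfl7, a protein secreted by endothelium, differed by -0.65 (adjusted p = 0.0699) and Pecam1, an endothelial junction protein, by -0.51 (adjusted p = 0.227). The part of these cell types in the subunit values was not tested.

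**Figure D5:**
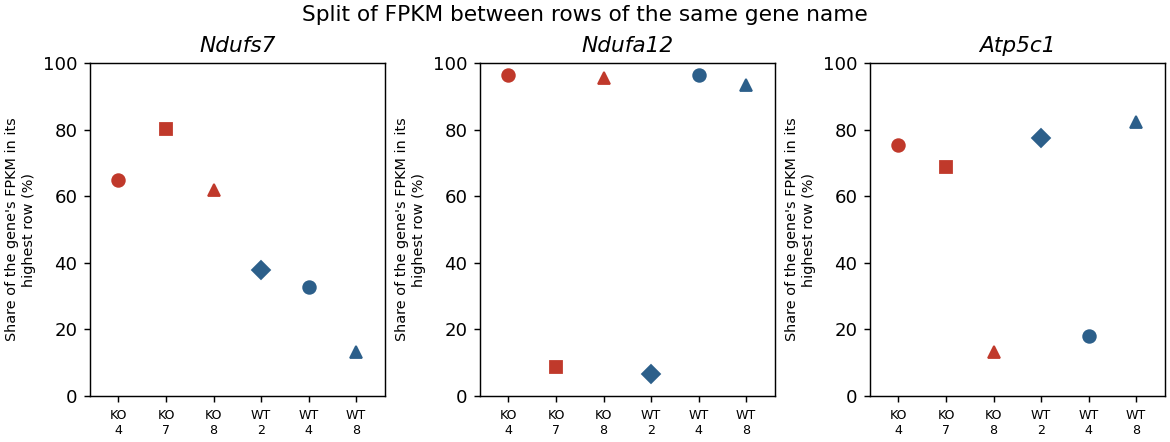
Share of a gene's summed FPKM held by its highest row, in percent, in the 6 aortas with Sirt2-KO left of WT, for Ndufs7, Ndufa12 and Atp5c1, each with several rows. Ndufs7 lies at 62.0% to 80.3% in Sirt2-KO and at 13.3% to 37.7% in WT.

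For 40 of the 82 genes the table held several rows under the same name, up to 6, which were added up above. The rows carry no transcript identifiers. The share of FPKM in a gene's highest row moved by at most 10 percentage points between aortas in 26 of the 40 and by more than 30 points in 6, whereas among all 2987 names with several rows it moved by more than 30 points in 1496. The groups lay apart in 5 of 40 (12.5%), against 15.5% of the 2987 names. In Ndufs7 the highest row held 64.8%, 80.3% and 62.0% of the sum in Sirt2-KO aortas, against 37.7%, 32.8% and 13.3% in WT aortas. That row was at 115, 132 and 139 FPKM in Sirt2-KO, against 62.4, 51.8 and 14.7 FPKM in WT, while the second was at 62.7, 32.4 and 85.4 FPKM in Sirt2-KO, against 103, 106 and 95.6 FPKM in WT. The rows thus differed in opposite directions, and the highest row alone had a log2 difference of 1.79 (adjusted p = 0.135), against 0.39 for the sum.

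In Ndufa12 the highest row held 96.4%, 8.75% and 95.5% in Sirt2-KO, against 6.61%, 96.4% and 93.6% in WT. The split turned round in 1 aorta of each genotype, and the sum was lowest in the same 2 aortas, at 53.6 FPKM in Sirt2-KO replicate 7 and 67.6 FPKM in WT replicate 2.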

How the data were processed

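RNA was sequenced from 6 aortas of aged C57BL/6 mice, 3 Sirt2-KO and 3 WT, grouped by genotype, with replicate numbers from the sample titles. The labels' design text gives 3 mice for each group. The labels' protocols name Trizol and standard Illumina libraries. The authors deposited FPKM values (per the file headers), 1 column for each sample, and 0 further sample columns. Bowtie 0.12.2 and mm9 are named, with no role, per the submitters' processing notes. What quantified, annotated and filtered the transcripts is not given in the sources used here. There are no counts, so the depth is unknown and no counting interval is given. Column sums ran from 367746 to 396901 FPKM. No row had a variance over the 6 samples under 1.00003, so a sum over listed rows can be partial.

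Of 14083 rows, 39 named by a calendar date were dropped, and rows of the same name were summed. The groups were compared on log2(FPKM + 1) in the 8605 genes whose mean reached 1 FPKM. The two-sided test was limma's (version 3.58.1, R 4.3.3, lmFit, then eBayes with a trend), with p-values adjusted by Benjamini-Hochberg over all of these genes and a threshold of 0.05. The pseudocount of 1 makes differences of low genes too small. The steps were tested on simulated data. Differences are log2 values, and folds are ratios of mean FPKM. Complexes, roles and gene lists were described by counts and medians and not tested.

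The genes and lists were chosen with earlier results of these data known. Genes named by rule are, in each complex, the 3 with the smallest p and the 2 with the highest mean, the Sdh genes, Cyc1, Cycs and isoform pairs, in each list the smallest p and the highest mean, and Cox7a1, Cox8b, Ucp1, Fabp4, Myh6, Acta2 and Nnt. Other core genes, Ebf2, Prdm16, Gk, Pdhb, Ndufa3, Ndufa12, Ndufv3, Uqcrb and Cox7c were named after their values were seen. Alternatives were another pseudocount, other filters, 2 scalings, the highest row of each name, a replicate block, Ndufa4 and Ndufa4l2 counted in complex IV, and each mouse left out. Promoter windows are from RefSeq (GRCm38.p6), matched by symbol. Transcript lengths are from GENCODE M21. Neither is the build of the files, and neither was used to place reads. A subunit gene and a gene of another list that the rule names are not reported here, though counts, sums and medians include them. Figures were drawn with matplotlib 3.10.9.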

Additional observations from a re-analysis of the deposited data

How the results depend on the processing

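No alternative scaling, filter or pseudocount called a subunit gene, and the number called higher was 0 to 1 over the fits without 1 mouse, the 1 being Ndufa4l2 without Sirt2-KO replicate 4; the number called lower was 0 in each. Leaving out 1 mouse moved the median log2 difference of complex I between -0.07 and 0.20, II between 0.10 and 0.47, III between 0.00 and 0.47, IV between -0.10 and 0.20, and V between -0.04 and 0.18. In those fits the difference of these genes changed sign: Ndufa4 (-0.27 to 0.015), Ndufb9 (-0.027 to 0.28), Sdhd (-0.037 to 0.44), Uqcr10 (-0.015 to 0.40), Cycs (-0.59 to 0.094), Cox6a2 (-2.22 to 0.13), Cox6b1 (-0.32 to 0.15), Cox7a2 (-0.17 to 0.11), Cox7a2l (-0.067 to 0.12), Atp5g2 (-0.10 to 0.091) and Atp5g3 (-0.086 to 0.11). Median-of-ratios scaling turned Atp5g2 (0.052), Cox6b1 (0.054) and Cox7a2 (0.056), and quantile normalization Atp5e (-0.042), Atp5g3 (-0.080) and Cox7a2l (-0.12); the cause was not tested. With Ndufa4 and Ndufa4l2 in complex IV both medians moved by less than the spread between replicates. Cox6b2 has no value at a minimum mean of 5 FPKM. Of all genes, 250 were called, against 151 with the highest row of each name, and with 1 mouse left out the count was 28 (without Sirt2-KO replicate 7), 29 (Sirt2-KO replicate 8), 71 (WT replicate 2), 148 (WT replicate 8), 225 (WT replicate 4) and 342 (Sirt2-KO replicate 4).

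With the replicate number as a block, 3 genes of all tested were called and 0 subunit genes (smallest adjusted p = 0.580), 74 subunit genes had a positive difference, and the sign turned for Atp5g2 (0.082), Cox6b1 (0.29), Cox7a2 (0.19), Cox7a2l (-0.015), Cycs (0.22) and Ndufa4 (0.070). The groups share numbers 4 and 8 only. Deviations of same-numbered aortas from their group means correlated at -0.0493 and -0.452. Each value compares single aortas and cannot show whether a shared number pairs mice, which the labels do not say. With 3 mice a group and unknown depth, differences within the spread between aortas were not detectable here.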
